A study of Mus musculus with 6 samples.

Results

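Foxi1, Hmx2, Insrr, Rhbg and Rhcg are 5 genes of the acid-base regulating intercalated cell and of ammonia transport in the kidney collecting duct, and they were followed by name among the 19937 genes measured in whole kidneys. Each gene was read by 1 probe set, the only one that carries its symbol alone, so no choice between probe sets was needed. Whole-kidney RNA was compared between 3 NICD1 arrays and 3 arrays of wild-type littermate controls. NICD1 mice carry Pax8rtTA, a tetracycline-controlled activator under the Pax8 promoter, and TREICNotch1, which places the Notch1 intracellular domain under that activator in tubule epithelial cells. The labels give no age, sex, inducing drug or time of induction, and they do not say whether each NICD1 array is a separate mouse, so the p-values measure the spread between these samples only.

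Intercalated cells acidify or alkalinise the urine. Type A cells pump protons into the urine through a vacuolar-type H+-ATPase and return bicarbonate to the blood, and type B cells secrete bicarbonate through the exchanger Slc26a4. The forkhead factor Foxi1 is required for these cells to form, and in the developing collecting duct Notch signalling favours the principal cell, which handles sodium and water, over the intercalated cell. Hmx2 is a homeobox factor best known from the inner ear. Insrr, the insulin receptor-related receptor, responds to alkaline fluid outside the cell and is found in type B cells. Rhbg and Rhcg are Rh glycoproteins that let ammonia cross the collecting duct epithelium, Rhbg at the basolateral membrane and Rhcg at the apical as well as the basolateral one. Both are made in intercalated cells and also in principal and connecting segment cells.

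The sequences just before the start sites of 3 of the 5 members are shown because the Notch1 intracellular domain acts through the DNA-binding protein RBPJ, whose core site reads TGGGAA. Each window holds the 250 bases before a RefSeq start site on GRCm38.p6, written 5′ to 3′ in the direction of the gene, and capitals mark every TGGGAA. Hmx2 has 2 annotated start sites. The windows lie at chr11:34208090-34208339, minus strand (Foxi1), chr7:79617658-79617907, minus strand (Rhcg), chr7:131548507-131548756, plus strand (Hmx2, first start site) and chr7:131554043-131554292, plus strand (Hmx2, second start site).
Foxi1: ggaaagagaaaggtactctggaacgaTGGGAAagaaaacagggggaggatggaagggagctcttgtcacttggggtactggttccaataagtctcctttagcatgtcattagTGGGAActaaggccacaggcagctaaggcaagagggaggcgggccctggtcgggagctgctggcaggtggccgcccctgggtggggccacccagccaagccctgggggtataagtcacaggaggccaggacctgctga
Rhcg: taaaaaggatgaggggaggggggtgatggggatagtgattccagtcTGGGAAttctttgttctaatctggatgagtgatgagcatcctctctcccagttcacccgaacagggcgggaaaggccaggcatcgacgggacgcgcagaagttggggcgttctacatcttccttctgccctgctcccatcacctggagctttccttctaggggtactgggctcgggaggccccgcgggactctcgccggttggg
Hmx2, first start site: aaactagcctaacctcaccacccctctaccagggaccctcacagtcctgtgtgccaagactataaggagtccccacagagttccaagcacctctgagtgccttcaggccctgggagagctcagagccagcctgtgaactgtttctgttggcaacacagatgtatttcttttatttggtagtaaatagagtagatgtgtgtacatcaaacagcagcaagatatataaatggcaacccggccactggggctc
Hmx2, second start site: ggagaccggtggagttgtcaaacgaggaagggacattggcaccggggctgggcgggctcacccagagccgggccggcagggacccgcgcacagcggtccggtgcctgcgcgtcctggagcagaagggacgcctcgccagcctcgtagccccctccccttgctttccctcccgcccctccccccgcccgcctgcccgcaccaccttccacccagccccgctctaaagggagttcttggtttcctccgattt
The Foxi1 window held TGGGAA at 2 places, from 224 to 219 and from 138 to 133 bases before the start, both on the strand of the gene. The Rhcg window held it at 1 place, from 204 to 199 bases before the start, and neither Hmx2 window held it. Both strands were searched, TTCCCA being the other strand's reading. Among 32851 windows of this kind, several genes having more than one, 21.6% held at least 1 TGGGAA and 2.8% held at least 2. The forkhead core GTAAACA, or its reverse TGTTTAC, was in none of the 4 windows and in 3.2% of all windows. These are matches of letters only, and binding was not measured.

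The arrays of the series correlated at 0.991 to 0.994 within controls, 0.985 to 0.990 within NICD1 and 0.912 to 0.935 between groups, across genes, which are not replicates. Notch1 was higher in NICD1 at 10.19 ± 0.18 against 6.56 ± 0.11 (SD, n = 3, log2), which checks the group labels without separating transgene from endogenous transcript. Kidney tubule markers stood high in controls, with Umod at 12.08 ± 0.11 and Slc34a1 at 12.28 ± 0.06. Among all genes, 14.9% were lower and 17.8% higher in NICD1 at an adjusted p under 0.05, with a median difference of 0.015 log2. In whole-organ RNA, fewer cells of a type and less RNA per cell cannot be told apart.

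Foxi1 and Insrr fell without overlap between groups, Hmx2 differed by a small amount that did not pass, and the Rh glycoprotein genes varied widely between NICD1 arrays. Of the 5 members, 2 fell, 0 rose and 3 did not pass, where 14.9% of all genes fell and 17.8% rose. The 3 NICD1 values lay below the 3 control values without overlap for Foxi1 and Insrr, which is 2 of 5 members, against 19.7% of all genes in that direction. With 5 genes, such shares are a description.

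**Figure D1:**
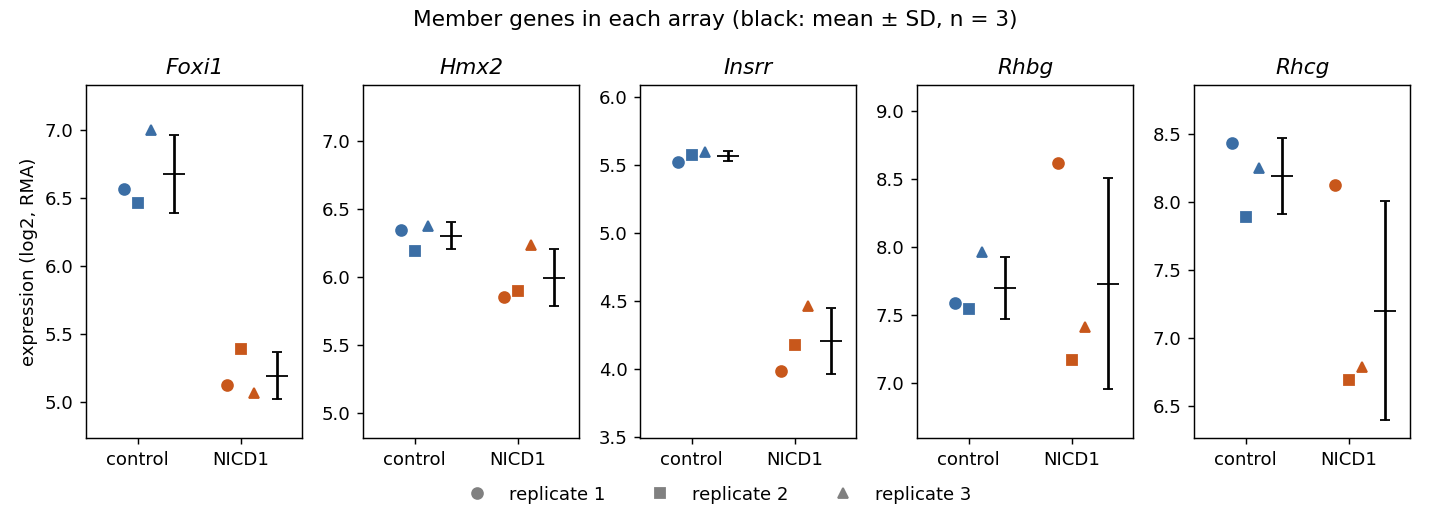
Expression (log2 after RMA, vertical axis) of the 5 member genes in each of the 6 arrays; marker shape gives the replicate number, and black bars give mean ± SD of 3 arrays. Panels span equal log2 ranges, and a reader should see no overlap for Foxi1 (gap 1.07 log2) and Insrr (gap 1.06) and a single high NICD1 array for Rhbg (8.62) and Rhcg (8.13).

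Foxi1, the transcription factor on which intercalated cells depend, read 6.56, 6.46 and 7.00 in control replicates 1 to 3 and 5.12, 5.39 and 5.06 in NICD1 replicates 1 to 3 (log2). All NICD1 arrays were low, and a gap of 1.07 log2 separated the highest of them from the lowest control. The mean went from 6.67 ± 0.28 to 5.19 ± 0.17 (SD, n = 3), a fall to a level 2.79-fold lower (-1.48 log2, SE 0.16, 95% interval -1.83 to -1.13, limma adjusted p = 8.32e-05). A larger fall was measured for 2.85% of genes. The NICD1 readings of Foxi1 were each below that array's median but above 44% to 50% of genes. RMA compresses differences among dim signals, and how far it did so here was not measured.

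Hmx2 read 6.34, 6.19 and 6.37 in controls and 5.85, 5.89 and 6.23 in NICD1. NICD1 replicates 1 and 2 were below every control, and NICD1 replicate 3 lay inside the control range. The means were 6.30 ± 0.10 and 5.99 ± 0.21 (SD, n = 3), a difference of -0.31 log2 (SE 0.13, 95% interval -0.59 to -0.025) that did not pass in limma (adjusted p = 0.0962). Without NICD1 replicate 3 the difference was -0.43 (adjusted p = 0.0180). The adjusted p over all alternatives ran from 0.0180 to 0.251.

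Insrr, the alkali-responsive receptor of type B cells, read 5.52, 5.57 and 5.59 in controls, the tightest control values of the 5 genes. In NICD1 it read 3.98, 4.17 and 4.46, again all below every control with a gap of 1.06 log2. The mean went from 5.56 ± 0.04 to 4.21 ± 0.24 (SD, n = 3), which is 2.56-fold lower (-1.36 log2, SE 0.13, 95% interval -1.65 to -1.06, limma adjusted p = 4.66e-05). A larger fall was measured for 3.31% of genes. Insrr stood just above the array median in controls and under it in all 3 NICD1 arrays, where it exceeded only 28.6% to 34.2% of genes.

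Rhbg, the basolateral ammonia transporter, read 7.59, 7.55 and 7.96 in controls and 8.62, 7.17 and 7.41 in NICD1. NICD1 replicate 1 lay above every control, while NICD1 replicates 2 and 3 lay below every control. The means, 7.70 ± 0.23 and 7.73 ± 0.78 (SD, n = 3), differed by 0.033 log2 (SE 0.32, 95% interval -0.69 to 0.76, limma adjusted p = 0.959). The interval includes changes of either sign, and without NICD1 replicate 1 the difference was -0.41 (adjusted p = 0.0801).

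Rhcg, the ammonia transporter of the apical and basolateral membranes, read 8.44, 7.89 and 8.26 in controls and 8.13, 6.69 and 6.79 in NICD1. NICD1 replicates 2 and 3 were more than 1 log2 below every control, and NICD1 replicate 1 was inside the control range. The means went from 8.19 ± 0.28 to 7.20 ± 0.80 (SD, n = 3), a difference of -0.99 log2 (SE 0.34, 95% interval -1.75 to -0.23). At a limma adjusted p of 0.0502 it missed the threshold by little, and without NICD1 replicate 1 it passed at -1.45 (adjusted p = 0.000185). Without NICD1 replicate 2 the difference was -0.73 (adjusted p = 0.167). These were the lowest and highest adjusted p over all alternatives.

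Leaving out NICD1 replicate 1 thus changed the call of Rhcg and the sign of the Rhbg difference, and it changed neither for Foxi1 and Insrr. The Rhbg sign is not particular to that array, since the difference over all arrays was near 0.033. It also turned without control replicate 1 (-0.021) and without control replicate 2 (-0.043). Measured against the control mean of each gene, NICD1 replicate 1 stood at 0.918 log2 for Rhbg and -0.0631 for Rhcg, but at -1.55 for Foxi1 and -1.58 for Insrr. Several lists stood highest in that array among the NICD1 arrays. The mean over 12 principal cell markers was 0.258 log2 relative to controls in NICD1 replicate 1, against -0.545 and -0.364 in NICD1 replicates 2 and 3, and 10 of the 12 were highest of the NICD1 arrays in replicate 1. The mean over 16 intercalated cell genes was close to equal in the 3 arrays, at -1.49, -1.60 and -1.52. Single genes differed: 6 of the 16 were highest of the NICD1 arrays in replicate 1, 1 in replicate 2 and 9 in replicate 3. The 16 are called pump and transport genes here, although Kit, Oxgr1, Dmrt2 and Car2 in the list are neither. The mean level of the principal cell markers ran from 7.03 to 7.32 in controls and from 6.63 to 7.43 in NICD1. Macrophage markers were also highest in NICD1 replicate 1, in 6 of 6, with mean levels of 4.73 to 4.97 in controls and 6.44 to 7.21 in NICD1. The same held for 8 of 11 collecting duct fate and Notch genes (mean 1.54 log2 relative to controls, against 1.24 and 1.23) and for 4 of 5 endothelial markers (-0.622, against -0.805 and -1.71). Mean levels of the endothelial markers ran from 7.07 to 7.08 in controls and from 5.36 to 6.45 in NICD1. Other lists did not stand highest in NICD1 replicate 1. The proximal tubule mean was lowest there (-4.58 log2 relative to controls, against -4 and -3.46), and 0 of 7 markers were highest in that array. The part of any of these in the Rh gene values was not tested.

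**Figure D2:**
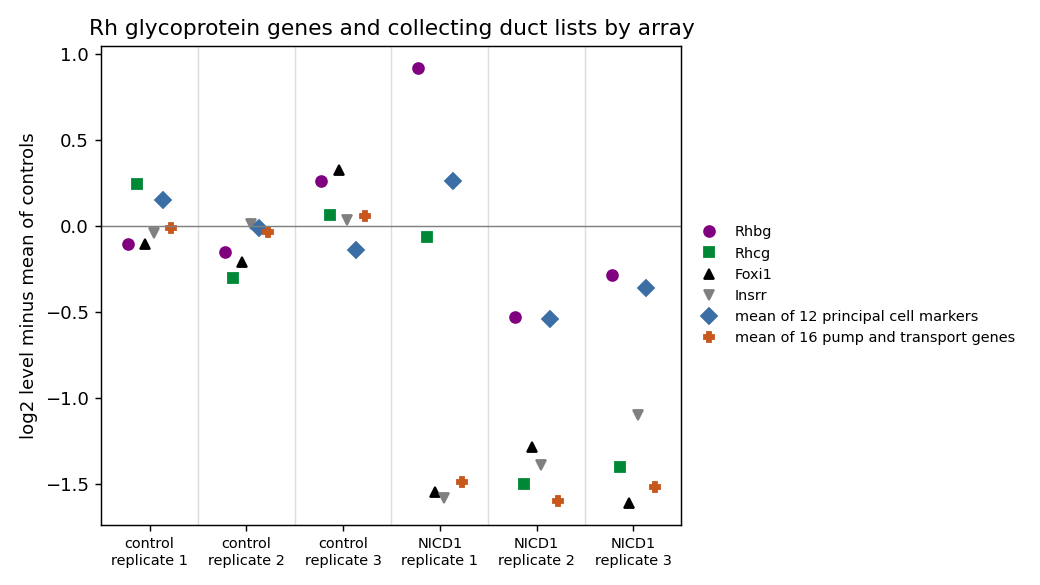
Log2 level in each array minus the mean of controls (vertical axis), for Rhbg, Rhcg, Foxi1 and Insrr and for the means of 12 principal cell markers and 16 intercalated cell pump and transport genes, by array (horizontal axis). In NICD1 replicate 1, Rhbg (0.918), Rhcg (-0.0631) and the principal cell mean (0.258) stand apart from Foxi1 (-1.55), Insrr (-1.58) and the pump and transport mean (-1.49). Of the 16 genes in that last mean, 6 were highest of the NICD1 arrays in replicate 1, 1 in replicate 2 and 9 in replicate 3.

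Although both Rh genes varied widely between NICD1 arrays, the difference between them on the same array varied little there. Rhbg minus Rhcg, in log2 on the same array, ran from -0.85 to -0.30 in controls and from 0.48 to 0.62 in NICD1. Probe sets differ in how strongly they respond, so the sign says nothing about which gene was more abundant, and only the shift between groups is a measurement. That shift was 1.02 log2 (SE 0.18), with no overlap of groups, at the smallest p that 3 against 3 arrays allow in an exact two-sided permutation test (p = 0.10, adjusted p = 0.20 over the 10 pairs of members). It is a shift within arrays, which centring cannot alter.

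Among the 10 pairs of members, 5 had groups without overlap and none reached an adjusted p below 0.20. The changes of Foxi1 and Insrr did not separate (Foxi1 minus Insrr -0.12 log2, SE 0.25, exact permutation p = 0.70, adjusted p = 0.875). For Hmx2 minus Insrr the value was 1.05 log2 (SE 0.08) and for Foxi1 minus Hmx2 it was -1.17 (SE 0.23). In both pairs the groups did not overlap, but the exact permutation p was the smallest possible, 0.10 (adjusted p = 0.20), so neither difference passed a test. Rhcg did not separate from Foxi1 (Foxi1 minus Rhcg -0.49, SE 0.54, exact permutation p = 0.60, adjusted p = 0.857). Neither result shows that the genes of the pair changed alike.

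Listed intercalated cell genes fell almost throughout, and whole-kidney RNA does not show in which cells. Of 16 pump and transport genes, 14 fell, 0 rose and 2 did not pass (median -1.60 log2, against -0.99 over the 5 members and 0.015 over all genes). The bicarbonate-chloride exchanger Slc26a4 of type B cells read 7.32, 7.21 and 7.45 in controls and 3.81, 4.02 and 4.02 in NICD1 (-3.38 log2, SE 0.11, limma adjusted p = 1.52e-07). The basolateral exchangers Slc4a1 of type A cells and Slc4a9 of type B cells fell by 2.05 and 2.49 log2, and the proton pump subunit Atp6v1g3 fell by 2.38. These 4 genes were named for their low p, which favours a small spread, and some other genes of the list that fell varied more between NICD1 arrays. The NICD1 range was 0.83 log2 for the proton pump subunit Atp6v0d2, 0.82 for the subunit Atp6v1b1, 0.69 for the carbonic anhydrase Car2 and 0.61 for the receptor Kit. Each of these was highest of the NICD1 arrays in replicate 1, as Rhbg and Rhcg were, while 9 of the 16 listed genes were highest in replicate 3. The 2 that did not pass were the proton pump subunit Atp6v0a4, which is also made in the proximal tubule (-0.15 log2, adjusted p = 0.680), and the H+/K+-ATPase subunit Atp12a (0.22, adjusted p = 0.196), which was dim in both groups.

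**Figure D3:**
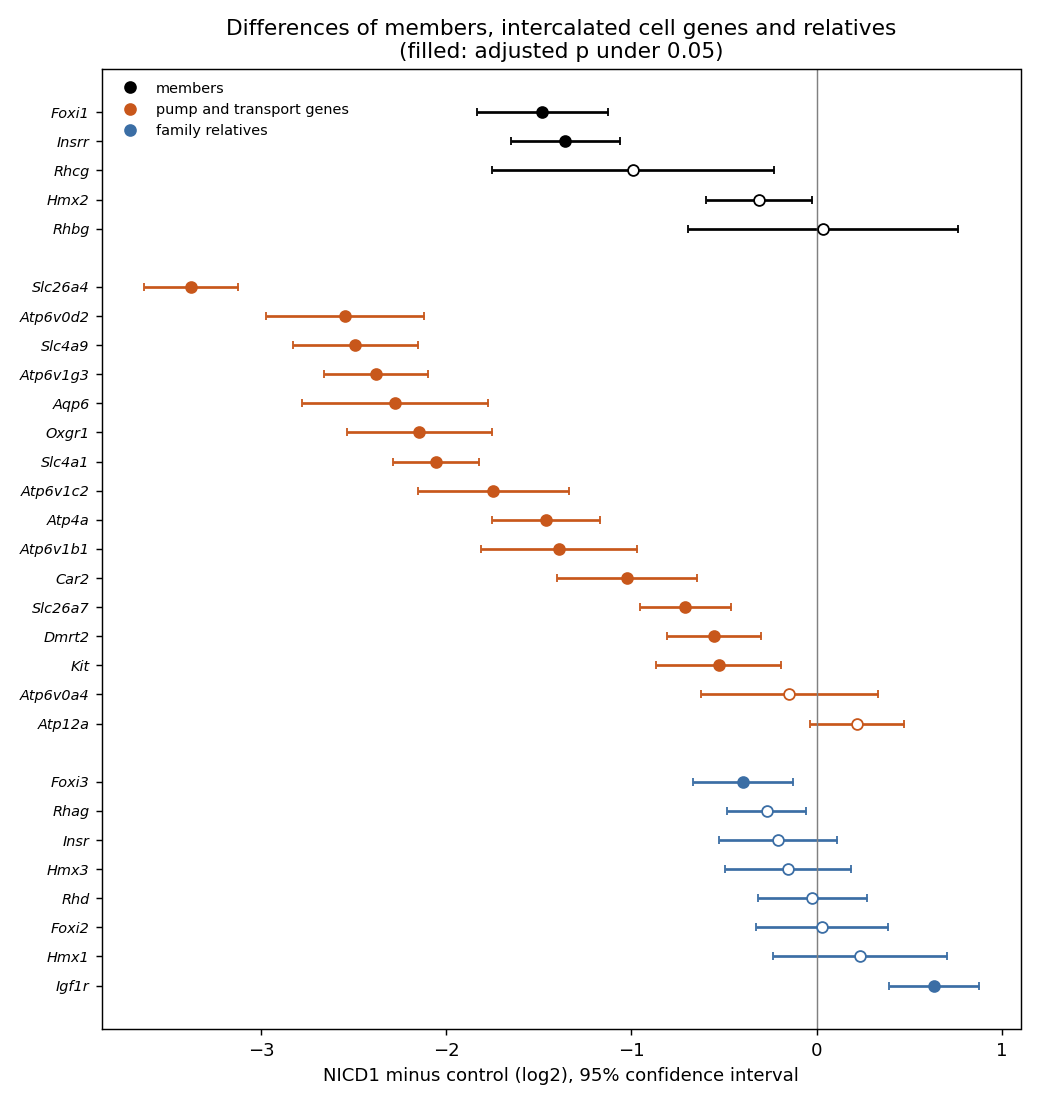
Difference between NICD1 and control (log2, horizontal axis) with its 95% confidence interval for the 5 members, 16 intercalated cell pump and transport genes and 8 family relatives; filled points passed an adjusted p of 0.05. In these groups, 2 of 5, 14 of 16 and 1 of 8 genes fell, and 1 relative rose, where 14.9% of all genes fell and 17.8% rose.

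Of the 8 closest relatives of the members, 1 fell, 1 rose and 6 did not pass (median -0.089 log2). Among all genes 14.9% fell and 17.8% rose, so these counts do not set the relatives apart from genes in general. Foxi3, a forkhead relative of Foxi1, fell by 0.40 (adjusted p = 0.0290), and Foxi2 differed by 0.030. The growth factor receptor Igf1r, of the same receptor family as Insrr, rose by 0.63 log2 (adjusted p = 0.00150), and the insulin receptor Insr differed by -0.21 (adjusted p = 0.335). Hmx3, the gene next to Hmx2 on chromosome 7, differed by -0.16, and the red cell Rh genes Rhag and Rhd by -0.27 and -0.023. Rhag and Rhd were dim in both groups (control means 2.82 and 3.25), so their lack of a call says little. Insrr and Rhbg lie on the same chromosome, 3, with 15 protein-coding genes between them in the GRCm38.p6 annotation, and Insrr fell while Rhbg did not pass.

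Of the collecting duct fate and Notch genes, 8 of 11 rose, 0 fell and 3 did not pass (median 0.86 log2). The Notch ligand Jag1, Notch1, the Notch target Hes1 and the receptor Notch2 rose by 4.05, 3.63, 1.73 and 1.06 log2. The 3 that did not pass were Tfcp2l1 (0.034), a factor that works with Notch in shaping collecting duct cell types, the principal cell factor Elf5 (0.47) and Gata3 (0.64). Gata3, a collecting duct transcription factor, read 8.01, 6.57 and 6.85 in NICD1 and 6.57, 6.29 and 6.64 in controls, so NICD1 replicate 1 was again the highest.

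Principal cell markers moved both ways: of 12, 4 fell, 3 rose and 5 did not pass (median -0.23 log2). The water channel Aqp3 and the potassium channel Kcnj1 fell by 2.52 and 1.01 log2. In contrast, the potassium channel subunit Kcne1 and the sodium channel subunit Scnn1g rose by 1.58 and 1.23. Whole-kidney RNA does not show in which cells any of these genes changed. Other cell types of the whole kidney also changed. All 7 proximal tubule markers fell (median -4.48), and 3 of 5 endothelial markers fell (median -1.21). Of 6 thick limb and distal markers, 4 fell and 1 rose (median -1.71). Those that fell were Pvalb, Calb1, Slc12a3 and Trpm6. Umod rose by 0.32 log2, and Cldn16 did not pass (-0.39, limma adjusted p = 0.174), so the list's falls do not extend to these 2 genes. Of 4 podocyte markers 2 fell and 1 rose (median -0.52), while 5 of 6 macrophage (median 2.07), 2 of 4 lymphocyte (0.18), 4 of 6 fibroblast (0.82) and 4 of 4 proliferation markers (3.33) rose with none falling.

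Most other genes of ammonia handling fell. Of 7 measured, 6 fell, 0 rose and 1 did not pass (median -1.17 log2). The proximal sodium-proton exchanger Slc9a3, which also carries ammonium, fell by 3.26 log2. The thick limb cotransporter Slc12a1, which takes up ammonium, fell by 2.71 log2. The cotransporter Slc12a2 and glutamine synthetase Glul fell by 1.17 and 1.16 log2. The glutamine transporter Slc38a3 did not pass (-0.73, adjusted p = 0.183), with NICD1 values of 6.22, 8.04 and 6.74. In this list NICD1 replicate 1 had the lowest mean relative to controls, at -2.05 log2 against -1.46 and -1.66, whereas it had the highest Rhbg and Rhcg values.

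The genes whose profile over the 6 arrays was nearest to each member were found by the distance between log2 values after subtraction of each gene's control mean. Those nearest to Foxi1 were Hacl1 (distance 0.232 log2), Hepacam2 (0.268) and Acss3 (0.295). Insrr was nearest to Aqp7 (0.0871), Lamtor5 (0.168) and Nceh1 (0.183), and Hmx2 to Olfr354 (0.0878), Lypd3 (0.105) and Atp7b (0.109). The Rh genes had more distant neighbours. Rhbg was nearest to Eml4 (0.465), Ifi203 (0.489) and Rsad2 (0.506), and Rhcg to Ndufs5 (0.668), Tmem45b (0.721) and the principal cell water channel Aqp2 (0.757). Among the members themselves, Foxi1 and Insrr were closest (0.643), and Foxi1 and Rhbg farthest apart (2.90). With 2 groups of 3 arrays this measure takes in the group difference as well as the spread between replicates.

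**Figure D4:**
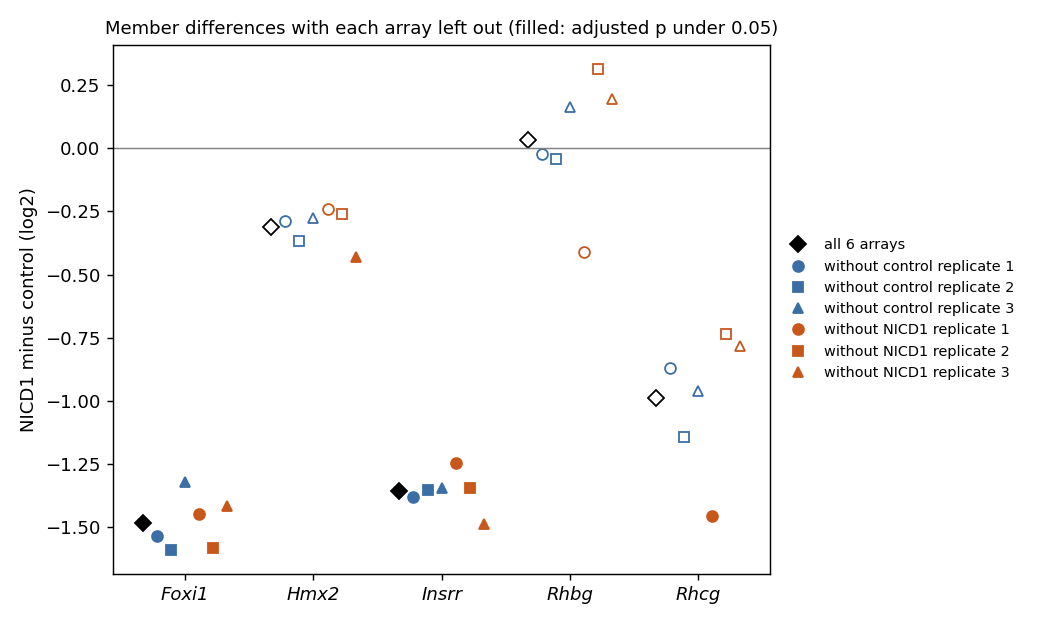
Difference between NICD1 and control (log2, vertical axis) for each member with all 6 arrays (black diamonds) and with each array left out in turn; filled points passed an adjusted p of 0.05. Foxi1 (-1.59 to -1.32) and Insrr (-1.49 to -1.24) passed with any array left out, Rhcg passed only without NICD1 replicate 1 (-1.45), Hmx2 only without NICD1 replicate 3 (-0.43), and Rhbg never did (-0.41 to 0.32).

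Leaving out each array in turn kept the call of Foxi1 and Insrr in all 6 cases, with differences of -1.59 to -1.32 and -1.49 to -1.24 log2. Centring each array on its median, which took the overall median of differences from 0.015 to -0.108 log2 and the share of lower genes from 14.9% to 20.0%, brought 4 of 5 members to a fall. The 2 added were Hmx2 (-0.43, adjusted p = 0.0223) and Rhcg (-1.11, adjusted p = 0.0304). Under that centring the split of calls went from 3551 higher and 2978 lower to 2594 higher and 3990 lower.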

How the data were processed

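Per the labels' protocols, TRIzol RNA from whole kidneys was biotin-labelled and hybridised to Affymetrix arrays, and the authors normalized the raw files in GeneSpring with the RMA16 algorithm. The deposited values are on a log2 scale, 1 per probe set, from 1.40 to 13.67. RMA forces the arrays to a shared distribution and compresses dim signals, so folds near the floor are understated. The labels name no detection calls or scan batches, and the number of arrays limits the precision.

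Of 34760 probe sets, 21640 had 1 symbol in the platform annotation, 1321 several and 11799 none. The probe set with the highest mean represented each of 19937 genes. limma 3.58.1 in R 4.3.3 compared all 6 arrays by group, two-sided, with p-values adjusted by Benjamini and Hochberg's method across the 19937 genes (threshold 0.05). Members and lists were chosen with earlier results of these data known. Up to 4 genes of lowest p were named for 5 lists, with the 3 nearest genes of each member. Umod, Slc34a1, Atp6v0d2, Atp6v1b1, Car2, Kit, Atp6v0a4, Atp12a, Slc38a3, Tfcp2l1, Elf5, Gata3 and the relatives beyond the rule were named after their values were seen. So were Pvalb, Calb1, Slc12a3, Trpm6 and Cldn16. Some listed genes were not analysed here. On simulated arrays of 19937 genes, 200 of them changed between the groups, the test recovered 19.4% of changes of 0.5 log2, 77.6% of 1 and 98.5% of 2. In the data 6529 genes were called, far more than were changed in the simulation. The adjustment of p depends on that share, so these rates do not give the recovery in this comparison. Alternatives were other scalings, variance models, array weights, filters, probe set averages, thresholds, the replicate block and leaving out each array.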

Additional observations from a re-analysis of the deposited data

How the results depend on the processing

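Foxi1 and Insrr kept their direction and call under all 13 alternatives run for each, from -1.60 to -1.32 and from -1.49 to -1.24 log2. The Hmx2 difference passed after centring of arrays (-0.43) and with array weights (-0.33), and ran from -0.43 to -0.24 with each array left out. Rhcg passed after centring (-1.11), with array weights (-1.11) and without the dimmest 40% of genes (-0.99, limma adjusted p = 0.0414). Among arrays left out, it passed without NICD1 replicate 1 (range -1.45 to -0.73). Rhbg never passed, and its sign turned after centring (-0.090), with array weights (-0.17) and with some arrays left out (-0.41 to 0.32). Members that fell numbered 4 with centring, where 20% of all genes tested fell, and 4 with array weights, where 16.2% did. They numbered 2 or 3 otherwise, with shares of 5.3% to 24% of the genes tested. Array weights give each array its own precision, and why the Hmx2 and Rhcg calls differ under them was not tested. Pump and transport genes that fell numbered 11 to 14. All called genes numbered 6529, and 1984 with a minimum of 2-fold. The labels do not say whether equal replicate numbers pair samples. Deviations of samples with equal numbers correlated at -0.069, -0.012 and -0.070, and 0 of 6 samples were closest to their own number. With 3 arrays per group, these values cannot decide whether samples were paired. With the replicate block, 5981 genes were called and Rhcg was among them (-0.99, adjusted p = 0.00863). Signal over background was not measured, so the NICD1 levels of Foxi1 and Insrr, each below the array median, give no firm fold.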
